A study of Mus musculus with 44 samples.

Results

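The open chromatin around 9 marker genes of pluripotent cells was followed in 6 groups of mouse embryos that lacked Oct4 or Sox2 and their 6 Ctrl groups. The genes were *Utf1*, *Zfp42*, *Dppa2*, *Dppa4*, *Dppa5a*, *Tdh*, *Pecam1*, *Fbxo15* and *Sall4*. Their ATAC-seq peaks were taken by position alone, as every peak over the gene body or within 20 kb on either side of it, which gave 165 distinct peaks of 152393. *Dppa2* and *Dppa4* are neighbours on chromosome 16 and shared 19 of these peaks.

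ATAC-seq measures how readily the Tn5 transposase inserts into DNA, and so reports open chromatin. The embryos were labelled B6C3F1 and came from a *Pou5f1* line, which carries the gene of Oct4, and a *Sox2* line. In each line the mothers were flox/flox with Zp3-Cre, which deletes the floxed gene in the oocyte, and the fathers carried a single null allele marked with a fluorescent reporter (*Pou5f1* +/mKO2 or *Sox2* +/EGFP). KO embryos therefore lacked the maternal and the zygotic gene, while Ctrl embryos lacked the maternal copy and kept the paternal allele, so Ctrl here is not wildtype. *Pou5f1*-KO and Ctrl embryos were taken as morula (E2.75), late morula (E3.25), early ICM (E3.75) and late ICM (E4.5), and *Sox2*-KO and Ctrl embryos as early and late ICM. Morula groups had 3 libraries each and ICM groups 4, 44 in all, and each library was a pool of embryos sorted by the reporter. ICMs had been cultured in 1 μM of the MEK inhibitor PD0325901 and freed of the trophectoderm by immunosurgery, which morulae had not, so stage and treatment cannot be told apart between morula and ICM. Nothing in the labels ties libraries to separate litters, and the p-values measure the spread between libraries.

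All levels are the deposited rlog values, a log2 scale of insertions per 200 bp peak that is adjusted for depth, and differences are KO minus Ctrl on that scale. No count table entered the work, which leaves library depth unknown, and rlog draws weak peaks toward their mean. The median over peaks lay between 2.35 and 2.63 in every library, libraries of a group correlated at 0.762 to 0.908, and no 2 libraries were identical. In the *Sox2* line a peak at the *Sox2* gene itself (chr3:34649826-34650025) lay between 2.35 and 3.28 in Ctrl late ICM and between 0.489 and 1.05 in *Sox2*-KO, without overlap. The same check was not made for *Pou5f1*. In pooled embryos, fewer cells with an open site and less opening per cell cannot be told apart.

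Oct4 and Sox2 are transcription factors of the early embryo. They bind next to each other on a composite OCT-SOX motif, in which a Sox site precedes an octamer, and such motifs are known from enhancers of many genes that are active in the ICM and in embryonic stem cells. *Utf1*, a chromatin protein of pluripotent cells, holds a classical example of such an enhancer beyond the end of the gene. *Zfp42*, also called Rex1, is a zinc finger protein and a marker of naive pluripotency. *Dppa2* and *Dppa4* are chromatin proteins that act together on early embryonic genes, and *Dppa5a* is an RNA-binding protein of the early embryo. *Tdh* is threonine dehydrogenase, a mitochondrial enzyme that is abundant in mouse embryonic stem cells. *Pecam1* is the adhesion receptor CD31, known from endothelium and found on ICM cells. *Fbxo15* is an F-box protein whose locus has served as a reporter in reprogramming, and *Sall4* is a zinc finger factor required in the ICM.

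The sequences that carry the main differences are those of 4 peaks that fell in both knockouts in late ICM. Each is given on the plus strand of GRCm38 (mm10) from 5′ to 3′, and capitals mark the stretch closest to the word CATTGT, any base, ATGCAAAT on either strand. That word has 15 letters of which 1 is free, and a peak was said to hold it with up to 3 of its other 14 letters changed. It stands in for the OCT-SOX motif and is not the matrix that the authors scanned with.

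*Utf1* 1.9 kb downstream, chr7:139945620-139945819: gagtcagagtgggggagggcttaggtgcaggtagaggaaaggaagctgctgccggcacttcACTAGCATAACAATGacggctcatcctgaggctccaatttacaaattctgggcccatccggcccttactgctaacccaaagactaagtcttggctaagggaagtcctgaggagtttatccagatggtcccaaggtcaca
*Pecam1* 26.1 kb downstream, chr11:106724459-106724658: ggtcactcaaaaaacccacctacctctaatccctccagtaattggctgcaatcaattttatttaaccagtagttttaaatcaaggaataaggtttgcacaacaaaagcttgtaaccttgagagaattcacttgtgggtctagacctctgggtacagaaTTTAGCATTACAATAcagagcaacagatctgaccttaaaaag
*Dppa5a* 3.2 kb downstream, chr9:78364851-78365050: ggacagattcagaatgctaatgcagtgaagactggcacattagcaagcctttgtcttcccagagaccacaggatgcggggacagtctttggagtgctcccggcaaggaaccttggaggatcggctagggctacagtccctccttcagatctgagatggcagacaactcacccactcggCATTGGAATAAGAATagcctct
*Tdh* 8.6 kb downstream, chr14:63500386-63500585: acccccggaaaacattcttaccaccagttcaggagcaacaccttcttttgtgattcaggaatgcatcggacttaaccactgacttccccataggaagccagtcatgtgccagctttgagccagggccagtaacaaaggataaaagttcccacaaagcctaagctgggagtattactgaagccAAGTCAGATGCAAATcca

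The *Utf1* peak held the word on the minus strand with 2 changes, A12T and A14G, and the *Pecam1* peak held it on the minus strand with 3, C1T, A12T and T15A. Positions are counted from 1 at the 5′ end of the word, with the letter of the word first and that of the peak second. The best stretch in the *Dppa5a* peak had 4 changes, T6G, G10A, C11A and A12G, which is outside the limit. The *Tdh* peak also had 4, all on the Sox side (C1A, T3G, G5C and T6A), and kept the octamer ATGCAAAT whole.

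Among all members, 10 of 165 peaks held the word (6.06%), against 4738 of all 152393 (3.11%). They were the *Utf1* and *Pecam1* peaks above, a further *Pecam1* peak, 3 of *Fbxo15*, 2 of *Dppa2* and 1 each of *Zfp42* and *Sall4*. Of these 10 peaks, 6 fell in at least 1 ICM comparison of KO with Ctrl, a share near the 55.8% of all 4738 peaks with the word, and 4 were called in none (39.5% of the 4738). The exact octamer stood in 4 member peaks (2.42%, all peaks 2.39%), the Esrrb word TCAAGGTCA with up to 1 change in 33 (20.0%, all 15.8%) and the Klf word GGGTGTGGC with up to 1 change in 35 (21.2%, all 22.8%). For comparison with the sequences above, the stretches of 4 other peaks with the word are given along the strand of the word, again with the word in capitals.

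*Pecam1* 41.2 kb downstream, plus strand, chr11:106709400-106709429: tacctacCATTGTCAGGAAAATtacagagc
*Zfp42* start site, plus strand, chr8:43307174-43307203: actcttgCTCAGTTATGCAAATgcctcttc
*Dppa2* 12.3 kb upstream, minus strand, chr16:48291592-48291621: taccaggtGATTGTGGTGCATATtccagca
*Sall4* 29.8 kb downstream, plus strand, chr2:168738094-168738123: cttccagCCATGTGGTGCAAATgcctcgct

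The first had 2 changes (T9G and C11A) and the others 3 each, A2T, T3C and T4A at *Zfp42*, C1G, A8G and A13T at *Dppa2*, and A2C, T3A and A8G at *Sall4*. The *Zfp42* and *Sall4* peaks were called in no knockout. A match describes letters only, and binding of Oct4 or Sox2 was not measured here.

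More member peaks rose than fell between morula and ICM in *Pou5f1* Ctrl embryos. Of the 165 peaks, 49 rose from morula to early ICM (29.7%, against 16.5% of all peaks) and 14 fell (8.48%, against 14.6%), by limma at an adjusted p under 0.05. The median difference was 0.30 in members and 0.13 over all peaks. *Dppa2* had 13 peaks that rose and *Dppa4* 12, all shared with *Dppa2*, while *Pecam1* had 12, *Utf1* and *Dppa5a* 7 each and *Zfp42* 5. *Sall4* had only 3 of 21, with a median difference of -0.18. At *Fbxo15* 2 rose and 3 fell of 25, and at *Tdh* 6 of 9 fell and none rose. The step lay after the late morula. From morula to late morula 3 member peaks rose (1.82%, all 3.65%) and 17 fell (10.3%, all 2.79%), and from late morula to early ICM 55 rose (33.3%, all 14.7%) and 8 fell (4.85%, all 15%). From early to late ICM no member peak was called in *Pou5f1* Ctrl, where 0.259% of all peaks were and 12 members had an unadjusted p under 0.05, and 2 rose in *Sox2* Ctrl (all peaks in either direction 0.595%).

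The step was also measured in *Pou5f1*-KO embryos. From morula to early ICM 28 member peaks rose (17.0%, all peaks 13.0%) and 22 fell (13.3%, all 13.7%) in *Pou5f1*-KO. Of the 49 peaks that rose in Ctrl, 19 also rose in *Pou5f1*-KO (38.8%) and 30 were not called there (61.2%), near the 40.5% and 59.3% of all 25205 peaks that rose in Ctrl. The difference between KO and Ctrl in the step from morula was not tested, and that in the step from late morula is given with the *Utf1* enhancer. The early ICM Ctrl libraries enter both this comparison and that of KO with Ctrl, so the counts are set side by side and no overlap between them was tested.

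Few member peaks were called between KO and Ctrl morulae. In morula no member peak was called in either direction (all peaks 0.185% decreased and 0.0518% increased by limma), and 10 had an unadjusted p under 0.05. In late morula none decreased (all 0.539%) and 1 increased (all 0.108%), with 20 higher and 3 lower at an unadjusted p under 0.05. The called peak lay 48.0 kb downstream of the *Fbxo15* start, with 3.40, 4.06 and 4.46 in Ctrl and 4.83, 5.83 and 5.75 in *Pou5f1*-KO (difference 1.49, adjusted p 0.0169). With KO and Ctrl libraries of the same number treated as pairs, 1 peak decreased and 4 increased in late morula. Without Ctrl library 1 or 2 or KO library 2 or 3 no late morula peak increased, and without KO library 1 there were 2. Without Ctrl library 1 there was 1 decrease. In morula 1 peak decreased without KO library 1, and 1 increased without KO library 2 or Ctrl library 3.

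In the ICM, more member peaks were called lower than higher in each comparison of KO with Ctrl. In *Pou5f1*-KO early ICM 14 peaks decreased (8.48%, all peaks 5.43%) and 5 increased (3.03%, all 2.8%), and in *Pou5f1*-KO late ICM 21 were lower (12.7%, all 10.1%) and 6 higher (3.64%, all 8.19%). In *Sox2*-KO early ICM 5 decreased (3.03%, all 1.91%) and none increased (all 0.238%), with 3 higher at an unadjusted p under 0.05. In late ICM of *Sox2*-KO 13 were lower (7.88%, all 4.88%) and 6 higher (3.64%, all 2.71%). The replicate block called more members of *Pou5f1*-KO early ICM in both directions, as given at the end. Some of the reported counts also depended on single libraries. In *Sox2*-KO late ICM the decreases were 8 without KO library 1 or Ctrl library 2 and 7 without Ctrl library 3, and the increases were 3 without Ctrl library 1 or KO library 4 and 2 without KO library 2 or 3. Decreases in *Sox2*-KO early ICM numbered 3 without Ctrl library 1 or KO library 3. For *Pou5f1*-KO the early ICM increases were 3 without Ctrl library 1, 2 or 3 or KO library 1 and 1 without KO library 4, and the late ICM increases 3 without KO library 3. With all libraries the shares that decreased were only a few percentage points above those of all peaks, and 138 of 165 members were not called in *Pou5f1*-KO late ICM. The median difference in late ICM was -0.27 in *Pou5f1*-KO (all peaks -0.04) and -0.11 in *Sox2*-KO (all peaks 0.01).

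Over the 4 ICM comparisons of KO with Ctrl 28 member peaks decreased at least once (all peaks 13.0%), 13 increased at least once (all 11.2%) and 124 were called in none (75.2%, all 75.8%). Peaks lower in both knockouts at the late ICM stage numbered 10 (all peaks 3.43%), with 4 at *Pecam1*, 2 each at *Utf1* and *Dppa5a*, and 1 each at *Dppa4* and *Tdh*. Peaks increased in both numbered 3 (all 1.02%), near *Utf1*, *Dppa2* and *Sall4*, and none was called in opposite directions. Decreased in all 4 ICM comparisons were 3 peaks (all 0.973%), the *Utf1*, *Pecam1* and *Dppa5a* peaks of the first sequences.

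**Figure D1:**
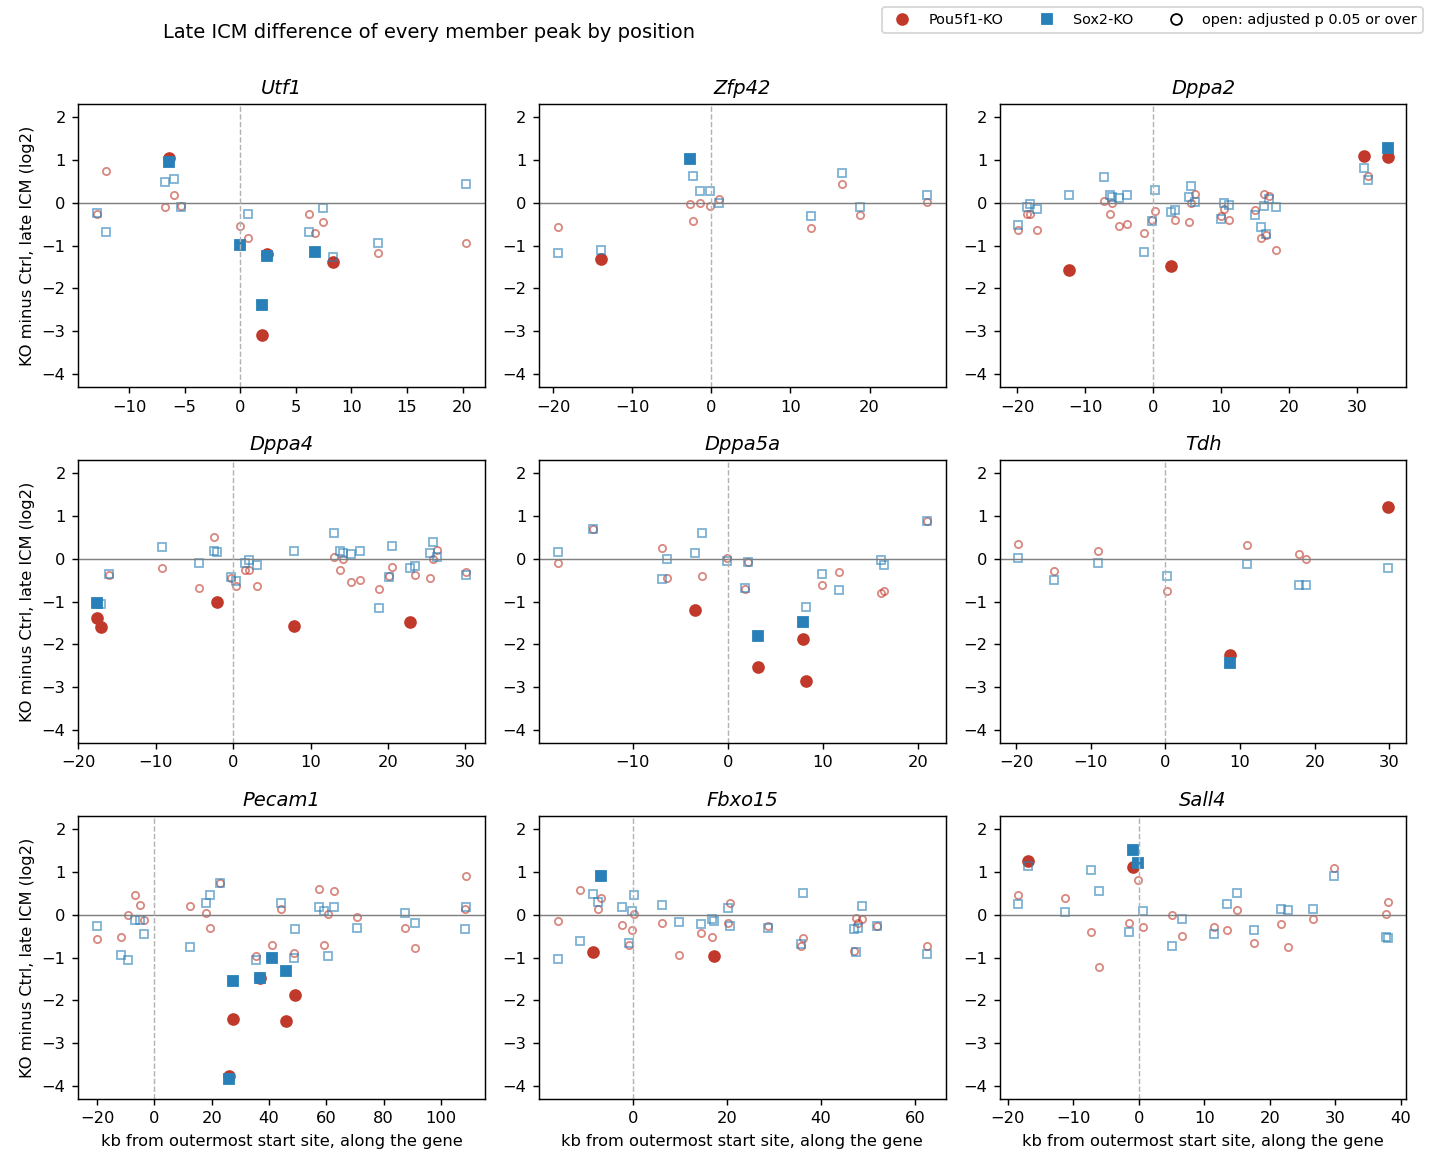
KO minus Ctrl differences in late ICM (vertical axis, log2 on the rlog scale) of every member peak by its distance from the outermost start site of its gene (horizontal axis, kb), 1 panel per gene. Red circles are *Pou5f1*-KO and blue squares *Sox2*-KO, filled where the adjusted p is under 0.05. The deepest filled points lie 1.9 kb downstream at *Utf1* (-3.09 and -2.38) and 26.1 kb downstream at *Pecam1* (-3.76 and -3.84).

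*Utf1* (chr7:139943789-139945112, plus strand) had 16 peaks, and the window also takes in part of *Kndc1* upstream. Of these, 4 decreased in *Pou5f1*-KO early ICM, 3 in *Pou5f1*-KO late ICM, 1 in *Sox2*-KO early ICM and 4 in *Sox2*-KO late ICM. Over all peaks 5.43%, 10.1%, 1.91% and 4.88% decreased in these comparisons, and 2.8%, 8.19%, 0.238% and 2.71% increased. The counts of the genes below stand against the same shares. The mean over the 16 peaks lay between 3.28 and 3.66 in *Pou5f1* Ctrl late ICM and between 2.78 and 3.10 in *Pou5f1*-KO, and was 3.36 ± 0.13 (SD) in *Sox2* Ctrl and 2.89 ± 0.13 in *Sox2*-KO late ICM.

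The peak 1.9 kb downstream of the start is the known enhancer beyond the 3′ end of the gene. In *Pou5f1* Ctrl it read 3.09, 2.25 and 3.11 in morula, 3.60, 1.88 and 2.83 in late morula, 5.41, 5.41, 5.20 and 4.85 in early ICM, and 4.33, 4.93, 5.12 and 5.30 in late ICM. In *Pou5f1*-KO it read 1.73, 1.55 and 0.85 in morula, 1.86, 1.52 and 1.72 in late morula, 1.37, 1.56, 1.73 and 1.32 in early ICM, and 2.29, 1.76, 1.13 and 2.14 in late ICM. KO libraries lay below Ctrl libraries at all 4 stages without overlap. In *Sox2* Ctrl it read 4.98, 5.28, 5.05 and 5.20 in early and 5.92, 5.83, 5.44 and 5.49 in late ICM. In *Sox2*-KO it read 2.29, 2.61, 3.06 and 4.08 in early and 3.35, 3.30, 2.92 and 3.58 in late ICM. These lay below every *Sox2* Ctrl library and above every *Pou5f1*-KO library of the same stage.

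The difference at this enhancer was -3.72 ± 0.38 (standard error) in *Pou5f1*-KO early ICM (13.2-fold, adjusted p 6.09e-13) and -3.09 in *Pou5f1*-KO late ICM (8.53-fold, 2.39e-10). In *Sox2*-KO it was -2.12 in early ICM (4.33-fold, 6.28e-05) and -2.38 in late ICM (5.22-fold, 1.12e-06). In morula (-1.44, adjusted p 0.157) and late morula (-1.07, 0.384) it did not pass. The *Pou5f1*-KO effect changed there from late morula to early ICM by -2.65 ± 0.58 (adjusted p 0.0146), the only member peak called for this change (all peaks 0.346%). At an unadjusted p under 0.05 the change was downward at 30 members and upward at 5, but the share of all peaks at that p was not computed. Its median was -0.34 in members and -0.02 over all peaks. From morula to early ICM it rose by 2.40 in Ctrl (adjusted p 3.38e-06) and changed by 0.12 in *Pou5f1*-KO (0.863).

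Ordered by mean level, the groups ran from *Sox2* Ctrl late ICM (5.67 ± 0.24, SD, n = 4) through *Pou5f1* Ctrl early ICM (5.22 ± 0.27), *Sox2* Ctrl early ICM (5.13 ± 0.13) and *Pou5f1* Ctrl late ICM (4.92 ± 0.42) to *Sox2*-KO late (3.29 ± 0.27) and early ICM (3.01 ± 0.78). Below them came Ctrl morula (2.82 ± 0.49) and late morula (2.77 ± 0.86), and lowest were the 4 *Pou5f1*-KO groups, from 1.83 ± 0.52 in late ICM to 1.38 ± 0.46 in morula. The libraries of *Sox2* Ctrl late ICM lay above those of the next group, and the other 3 Ctrl ICM groups overlapped. The *Sox2*-KO ICM and Ctrl morula groups overlapped one another, and no library of theirs reached a Ctrl ICM library.

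A second peak 2.4 kb downstream moved with the enhancer but less far. In early ICM it read 4.88, 3.82, 4.63 and 4.13 in *Pou5f1* Ctrl and 3.07, 3.07, 2.70 and 2.24 in *Pou5f1*-KO, a decrease of -1.59 (adjusted p 0.00193). In late ICM the decreases were -1.19 in *Pou5f1*-KO (0.0169) and -1.23 in *Sox2*-KO (0.0256). Both late calls rest on single libraries. Leaving out *Pou5f1*-KO late ICM library 4 gave -0.93 (adjusted p 0.109) and Ctrl library 4 gave -1.08 (0.0628), and for *Sox2* leaving out KO library 3 gave -0.91 (0.199) and Ctrl libraries 1, 2 or 3 gave adjusted p from 0.0588 to 0.118. Further downstream, the peaks at 6.8 kb (-1.26 in *Pou5f1*-KO early ICM, adjusted p 0.0182, and -1.15 in *Sox2*-KO late ICM, 0.0379) and at 8.3 kb (-1.37 in *Pou5f1*-KO late ICM, 0.0166) also decreased. At 6.8 kb the *Pou5f1*-KO call was lost without KO library 1 or Ctrl library 2 or 3 (0.0538 to 0.0867) and the *Sox2*-KO call without Ctrl library 1, 2 or 4 or KO library 1, 3 or 4 (0.0654 to 0.166). At 8.3 kb the call was lost without KO library 1 or Ctrl library 3 or 4 (0.0556 to 0.118).

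The *Utf1* start site (chr7:139943700-139943899) had the highest mean of the locus. It read 5.36, 5.47, 5.03 and 5.30 in *Pou5f1* Ctrl early ICM and 3.29, 4.49, 4.18 and 3.71 in *Pou5f1*-KO, which did not overlap (-1.37 ± 0.32, 2.59-fold, adjusted p 0.00141). In *Pou5f1*-KO late ICM the difference was -0.54 (0.248), and in *Sox2*-KO early ICM -0.03 (0.984). *Sox2* Ctrl late ICM read 4.98, 5.55, 5.46 and 4.89 and *Sox2*-KO 4.63, 4.66, 4.47 and 3.17 (-0.99, 0.036), and without the low KO library 4 this was -0.63 (0.308). Without Ctrl library 2 or 3 it did not pass either (0.126 and 0.102). A peak 6.4 kb upstream, 1602 bp from the start of *Kndc1*, rose instead. It read 4.0, 4.21, 4.49 and 4.46 in *Pou5f1* Ctrl late ICM and 5.41, 5.58, 5.08 and 5.29 in KO (1.05, 0.0105), and 4.59, 4.43, 4.18 and 4.83 in *Sox2* Ctrl and 5.42, 5.28, 5.64 and 5.49 in KO (0.95, 0.0435). The groups did not overlap, but the *Sox2* call was lost on leaving out any of 7 of the 8 libraries (adjusted p 0.0624 to 0.133).

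*Pecam1* (chr11:106654217-106750628, minus strand) is the longest of these genes and had 28 peaks, in a window shared with *Milr1* and *Polg2*. Of these, 4 decreased in *Pou5f1*-KO early ICM, 5 in each late ICM comparison and 1 in *Sox2*-KO early ICM, and none increased. The 6 peaks that decreased in any of these comparisons all lay in introns of the gene, between 26.1 and 49.1 kb downstream of the outermost start.

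The intronic peak 26.1 kb downstream was the deepest. In *Pou5f1* Ctrl it read 3.07, 3.03 and 2.95 in morula, 2.06, 3.60 and 3.63 in late morula, 4.97, 5.23, 5.28 and 5.53 in early ICM and 4.45, 5.07, 5.57 and 5.21 in late ICM. In *Pou5f1*-KO it read 3.65, 1.501 and 0.81 in morula, 1.47, 1.31 and 1.34 in late morula, 1.33, 3.43, 1.35 and 2.45 in early ICM and 1.38, 1.73, 0.69 and 1.46 in late ICM. Only the morula groups overlapped, through the first KO library. *Sox2* Ctrl read 4.85, 5.52, 4.86 and 4.78 in early and 5.75, 5.50, 5.52 and 4.77 in late ICM, and *Sox2*-KO 2.84, 2.60, 3.16 and 3.66 in early and 1.01, 1.24, 1.83 and 2.09 in late ICM. The *Sox2*-KO libraries of late ICM all lay below those of early ICM.

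At this peak the difference was -3.11 in *Pou5f1*-KO early ICM (8.65-fold, adjusted p 1.17e-08), -3.76 ± 0.42 in *Pou5f1*-KO late ICM (13.6-fold, 5.87e-12), -1.94 in *Sox2*-KO early ICM (3.83-fold, 0.00142) and -3.84 ± 0.42 in *Sox2*-KO late ICM (14.3-fold, 5.24e-12). In late morula it was -1.72 and did not pass (0.0692). Ctrl rose by 2.24 from morula to early ICM (adjusted p 6.81e-05), while *Pou5f1*-KO changed by 0.15 (0.841). The 4 Ctrl ICM groups had the highest means (5.00 ± 0.35 to 5.38 ± 0.42), followed by Ctrl late morula (3.10 ± 0.90), *Sox2*-KO early ICM (3.06 ± 0.46) and Ctrl morula (3.02 ± 0.06), which overlapped. *Pou5f1*-KO early ICM (2.14 ± 1.01) and morula (1.99 ± 1.48), *Sox2*-KO late ICM (1.54 ± 0.50), and *Pou5f1*-KO late morula (1.38 ± 0.09) and late ICM (1.31 ± 0.44) came last, each overlapping the next.

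The next peak, 27.4 kb downstream, read 3.96, 4.59, 4.53 and 4.75 in *Pou5f1* Ctrl late ICM and 1.38, 2.67, 2.16 and 1.83 in KO (-2.45, adjusted p 4.65e-07). *Sox2* Ctrl late ICM read 4.73, 3.82, 5.23 and 4.41 and KO 3.07, 3.37, 2.90 and 2.66 (-1.55, 0.00356). In early ICM it decreased in *Pou5f1*-KO (-1.39, 0.0107) and was -0.19 in *Sox2*-KO (0.916). The weak peak 46.0 kb downstream was nearly closed in Ctrl morula (0.61, 0.49 and 0.23) and read 3.08, 3.19, 3.22 and 3.36 in *Pou5f1* Ctrl late ICM against 0.51, 1.47, 0.08 and 0.82 in KO (-2.49, 1.27e-06). Its decrease in *Sox2*-KO late ICM (-1.31, 0.0302) left the groups only just apart, with 1.46, 2.59, 2.52 and 1.79 in Ctrl and 0.50, 1.05, 0.15 and 1.44 in KO, and did not pass without KO library 1 or 3 or Ctrl library 2 or 3 (0.0895 to 0.144). Nor did it pass after quantile normalization (0.0619) or with only the libraries compared (0.0531). In *Sox2*-KO early ICM the difference was -1.33 (0.0634), which passed after quantile normalization (0.0428) and without KO library 1 (-1.56, 0.0412). The decrease in *Pou5f1*-KO early ICM (-1.25, 0.0396) did not pass without any of 7 of the 8 libraries (0.0531 to 0.0916).

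Further intronic peaks of *Pecam1* decreased less far. At 36.8 kb downstream *Pou5f1*-KO late ICM was lower by -1.49 (adjusted p 0.00773, 0.0957 without KO library 3) and *Sox2*-KO by -1.47 (0.0174, 0.0637 to 0.0708 without KO library 1 or 3 or Ctrl library 4). At 49.1 kb the decreases were -1.65 in *Pou5f1*-KO early ICM (0.0149, and 0.0507 to 0.0814 without Ctrl library 2 or KO library 2, 3 or 4) and -1.86 in late ICM (0.00218), with -0.33 in *Sox2*-KO late ICM (0.799). The peak at 41.2 kb, which has the closest match to the OCT-SOX word of the locus, differed by -0.70 in *Pou5f1*-KO late ICM (0.12, and 0.0428 with only the libraries compared) and decreased by -1.0 in *Sox2*-KO late ICM (0.0334, and 0.0525 to 0.18 without any of 6 of the 8 libraries). In *Sox2*-KO early ICM it differed by -0.98 (0.0936). That difference passed with the replicate block (0.0259) and without Ctrl library 4 (-1.35, 0.00958) or KO library 1 (-1.2, 0.0451). The start site peak 35.4 kb downstream of the outermost start rose from 1.70 ± 0.84 in Ctrl morula to 3.46 ± 0.55 in early ICM (adjusted p 0.00314) and was called in no knockout (-0.97, 0.12, or 0.0494 without *Pou5f1*-KO library 2, and -1.06, 0.148, in late ICM). The highest peak of the window, 108.5 kb downstream, was at 5.72 ± 0.11 in Ctrl morula and was called in no comparison of KO with Ctrl.

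*Dppa5a* (chr9:78367052-78368177, minus strand) had 17 peaks, with *Gsta2* and *Ooep* in the same window. Decreases numbered 2 in *Pou5f1*-KO early ICM, 4 in *Pou5f1*-KO late ICM, 1 in *Sox2*-KO early ICM and 2 in *Sox2*-KO late ICM, and 4 peaks increased in *Pou5f1*-KO early ICM. The decreases lay in a stretch downstream of the gene and at 1 peak upstream, while the start site was not called. That upstream peak, at 3.5 kb, differed by -1.2 in *Pou5f1*-KO late ICM (adjusted p 0.0355). It did not pass without any of 6 of the 8 libraries (up to 0.133).

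The peak 3.2 kb downstream read 2.18, 3.48 and 3.38 in Ctrl morula, 4.75, 4.93, 5.37 and 5.22 in *Pou5f1* Ctrl early ICM and 5.08, 5.17, 5.11 and 5.60 in late ICM. *Pou5f1*-KO read 1.48, 1.64, 2.86 and 2.55 in early and 1.52, 3.52, 2.39 and 3.41 in late ICM. *Sox2* Ctrl read 5.15, 4.72, 4.26 and 5.00 in early and 6.43, 6.26, 5.57 and 5.08 in late ICM, and *Sox2*-KO 3.80, 3.54, 3.44 and 2.98, then 4.38, 4.26, 3.72 and 3.748. No KO library reached a Ctrl library of its line and stage. The differences were -2.93 in *Pou5f1*-KO early ICM (7.64-fold, adjusted p 4.93e-09), -2.53 in *Pou5f1*-KO late ICM (5.78-fold, 1.77e-07) and -1.80 in *Sox2*-KO late ICM (3.49-fold, 0.000415). The fourth, -1.34 in *Sox2*-KO early ICM (0.0372), did not pass without any of 6 of the 8 libraries (0.0634 to 0.124).

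A pair of peaks lies farther downstream, nearer to the start of *Gsta2* than to that of *Dppa5a*. At 8.2 kb *Pou5f1* Ctrl late ICM read 5.13, 4.61, 5.10 and 5.30 and KO 3.08, 2.04, 2.50 and 1.05 (-2.87, 7.29-fold, adjusted p 3.11e-08), and early ICM differed by -2.47 (3.65e-06). *Sox2* Ctrl late ICM read 5.15, 5.05, 5.03 and 4.35 and KO 3.89, 3.98, 4.10 and 3.09, without overlap, but the difference of -1.13 did not pass (0.0734). It passed in a fit of only the libraries compared (0.00761) and with the replicate block (0.0371). At 7.9 kb the late ICM decreases were -1.87 in *Pou5f1*-KO (0.000345) and -1.47 in *Sox2*-KO (0.0121, 0.115 without KO library 1 and 0.054 without Ctrl library 3). In *Pou5f1*-KO early ICM the difference there was -1.18 (0.0587), which passed with the replicate block (0.0338).

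At the *Dppa5a* start site, group means lay between 4.66 and 5.38 in all 12 groups. The late ICM difference was 0.02 in *Pou5f1*-KO (95% interval -0.55 to 0.58) and -0.06 in *Sox2*-KO. The highest peak of the locus, 2.1 kb downstream, had means between 5.70 and 7.03 and no call in a knockout, and was lower in *Pou5f1* Ctrl than in *Sox2* Ctrl late ICM by 1.02 (adjusted p 0.00646). The peaks that increased in *Pou5f1*-KO early ICM lay 21.0 and 16.5 kb downstream and 14.1 and 6.9 kb upstream. The first of these, 27 bp from the start of *Gsta2*, a glutathione transferase, rose by 2.14 (0.000162) and passed without any single library, whereas each of the other 3 lost its call without at least 3 of the 8 libraries.

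*Tdh* (chr14:63492347-63509092, minus strand) had 9 peaks and also covers part of *Mtmr9*. The mean over its peaks fell from 3.05 in *Pou5f1* Ctrl morula to 2.23 in late morula, 1.62 in early and 1.52 in late ICM. Its start site had group means between 3.53 and 4.35 and no call (-0.75 in *Pou5f1*-KO late ICM, adjusted p 0.137).

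A single weak peak in an intron 8.6 kb downstream, 227 bp from an internal annotated start, was highest in late ICM of Ctrl embryos. It read 0.77, 1.11 and 0.35 in *Pou5f1* Ctrl morula, 1.24, 1.07, -0.13 and 1.97 in early ICM and 1.58, 2.87, 2.15 and 2.29 in late ICM. In *Pou5f1*-KO late ICM it read 0.01, -0.20, -0.32 and 0.41. *Sox2* Ctrl read 1.16, 0.01, 1.28 and -0.05 in early and 2.17, 2.62, 1.34 and 2.68 in late ICM, and *Sox2*-KO late ICM -0.36, -0.26, -0.27 and -0.05. Late ICM libraries of KO and Ctrl were far apart in both lines. The decreases were -2.25 ± 0.41 in *Pou5f1*-KO (4.75-fold, adjusted p 1.5e-05) and -2.44 ± 0.41 in *Sox2*-KO (5.42-fold, 4.69e-06), against -0.77 (0.286) and -0.30 (0.856) in early ICM. The rise from early to late ICM passed in *Sox2* Ctrl (adjusted p 0.0392). The peak 29.8 kb downstream was instead higher in *Pou5f1*-KO in early (1.28, 0.0221, and 0.084 to 0.0857 without Ctrl library 1 or KO library 4) and late ICM (1.21, 0.0183, and 0.0637 to 0.0883 without KO library 2 or 3 or Ctrl library 4) and *Sox2*-KO was at -0.10 and -0.21 from its Ctrl.

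*Dppa4* (chr16:48283733-48294237, plus strand) and *Dppa2* (chr16:48303908-48319723, plus strand) had 27 and 30 peaks. *Dppa4* had 3 decreases in *Pou5f1*-KO early ICM, 5 in *Pou5f1*-KO late ICM, of which 2 are shared with *Dppa2*, and 1 in *Sox2*-KO late ICM. *Dppa2* had none in early ICM and 2 decreases and 2 increases in *Pou5f1*-KO late ICM, the decreases being those shared with *Dppa4*. Of its 30 peaks these are smaller shares than over all peaks, of which 10.1% decreased and 8.19% increased there. The mean over the *Dppa4* peaks was 4.37 in *Pou5f1* Ctrl late ICM and 3.87 in *Pou5f1*-KO, and 4.43 and 4.31 in the *Sox2* line.

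The *Dppa4* peak decreased in both knockouts lay 17.6 kb upstream (chr16:48266013-48266212). *Pou5f1* Ctrl read 4.63, 4.94 and 4.64 in morula, 5.21, 4.97, 4.95 and 5.58 in early ICM and 5.59, 4.83, 4.69 and 4.98 in late ICM. *Pou5f1*-KO read 3.08, 4.14 and 3.99, then 3.02, 4.17, 3.85 and 4.23, then 3.30, 4.04, 3.73 and 3.52. Unlike the enhancers above, this site was nearly as open in Ctrl morula as in ICM, but it dropped to 3.13 ± 0.57 in late morula (adjusted p 0.00443) and rose again (6.71e-06). KO libraries lay below Ctrl in morula too, though the difference of -1.0 did not pass (adjusted p 0.369). It decreased by -1.36 in early (0.00312) and -1.37 in late ICM (0.00135) of *Pou5f1*-KO. In *Sox2* Ctrl late ICM it read 4.34, 5.20, 5.20 and 5.16 and in KO 3.745, 4.29, 4.24 and 3.46 (-1.04, 0.0362), a call lost without KO library 1 or 4 or Ctrl library 2, 3 or 4 (0.0957 to 0.144). Its neighbour 17.1 kb upstream decreased in *Pou5f1*-KO early (-1.70, 0.00302) and late ICM (-1.59, 0.00318), and the *Sox2*-KO differences there were -1.14 (0.164) and -1.05 (0.117).

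Of the shared peaks, the intronic one 2.7 kb downstream of the *Dppa2* start read 5.37, 5.12, 4.79 and 4.65 in *Pou5f1* Ctrl late ICM and 3.38, 3.08, 3.48 and 4.05 in KO (-1.48, adjusted p 0.00018). *Sox2* Ctrl late ICM read 5.81, 5.25, 4.63 and 4.84 and KO 5.37, 4.49, 5.24 and 4.56, which overlapped (-0.22, 0.796). The peak 12.3 kb upstream of *Dppa2*, which has the OCT-SOX word shown above, read 3.58, 2.70, 3.03 and 3.91 in *Pou5f1* Ctrl late ICM and 2.04, 0.76, 2.49 and 1.65 in KO (-1.57, 0.00911, and 0.0704 without KO library 2), with 0.17 in *Sox2*-KO (0.906). The other *Dppa2* peak with the word, 15.1 kb downstream, had group means from 2.18 to 3.55 and no call in a knockout.

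The peaks nearest the start of either gene were called in no knockout, but a *Dppa4* peak 0.3 kb upstream decreased in *Pou5f1*-KO early ICM (-1.16, adjusted p 0.0168, and 0.0516 to 0.0886 without KO library 1 or 4 or Ctrl library 2 or 3). The *Dppa2* start site peak rose from 3.13 ± 0.83 in Ctrl morula to 4.39 ± 0.16 in early ICM (1.25, adjusted p 0.0135, and 0.208 without Ctrl morula library 2). It also rose in *Pou5f1*-KO, by 2.00 (8.94e-05). The highest peak of the window, 5.2 kb downstream of the *Dppa2* start, had group means from 5.15 to 6.34. A peak 34.5 kb downstream of *Dppa2* increased in both knockouts. It read 2.73, 3.23, 3.21 and 3.84 in *Pou5f1* Ctrl late ICM and 4.22, 4.25, 4.63 and 4.17 in KO (1.06, 0.0282, and 0.0547 to 0.106 without Ctrl library 1, 2 or 3 or KO library 3). *Sox2* Ctrl read 2.19, 3.49, 3.52 and 3.80 and KO 4.54, 4.83, 4.97 and 3.79 (1.28, 0.0136, and 0.0566 to 0.159 without Ctrl library 1 or KO library 2 or 3).

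*Zfp42* (chr8:43295063-43306980, minus strand) had 11 peaks, of which 1 decreased in *Pou5f1*-KO late ICM (all peaks 10.1%) and 1 increased in *Sox2*-KO late ICM (all 2.71%). The start site peak (chr8:43307006-43307205) had group means between 5.92 ± 0.69 and 6.98 ± 0.18, among the highest of all members, and holds the OCT-SOX word. KO differed from Ctrl there by -0.07 in *Pou5f1* late ICM (95% interval -0.49 to 0.36) and 0.28 in *Sox2* late ICM (-0.15 to 0.71). It rose from morula to early ICM in Ctrl by 0.82 (adjusted p 0.0033), which was not called after quantile normalization (0.0684) or without Ctrl morula library 1 (0.121). The single decrease lay 14 kb upstream, where *Pou5f1* Ctrl late ICM read 5.22, 5.32, 5.46 and 5.46 and KO 2.08, 5.02, 4.76 and 4.36 (-1.31, 0.0228). Without KO library 1 the difference was -0.65 (0.345), and the call was also lost without Ctrl library 3 or 4 (0.053). In *Sox2* late ICM the same peak read 4.55, 4.44, 4.33 and 5.23 in Ctrl and 3.92, 3.64, 3.82 and 2.81 in KO, which did not overlap but did not pass (-1.09, 0.117), though it did in a fit of only the libraries compared (0.0178) and with the replicate block (0.0384). The single increase, 2.7 kb upstream in *Sox2*-KO late ICM, went from 4.84, 4.41, 4.40 and 4.29 to 5.63, 5.50, 5.47 and 5.42 (1.02, 0.0338, and 0.0562 to 0.0912 without any of 7 of the 8 libraries).

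*Fbxo15* (chr18:84934782-84981473, plus strand) had 25 peaks, with *Timm21* in the window. Its highest peak, 0.2 kb upstream of the start, had group means from 6.08 to 7.32 and holds the OCT-SOX word, and the start site peak itself ranged from 5.54 to 6.58. Neither was called in a knockout, with -0.36 (adjusted p 0.209) and 0.01 (0.98) in *Pou5f1*-KO late ICM. The clearest decrease was in *Sox2*-KO early ICM, at a peak 16.0 kb upstream that also holds the word. It read 5.12, 4.99, 4.71 and 4.29 in *Sox2* Ctrl and 2.94, 3.14, 2.69 and 3.23 in KO (-1.78, 0.00262), against -0.07 in *Pou5f1*-KO early ICM (0.957). A test of the difference between the knockouts there gave 1.71 (95% interval 0.56 to 2.87) but an adjusted p of 0.136. The third peak with the word, 0.9 kb upstream, decreased in *Sox2*-KO early ICM (-1.08, 0.048), which without KO library 3 was -0.60 (0.518) and without Ctrl library 4 was -0.78 (0.319), and was also lost without Ctrl library 1 or KO library 1 or Ctrl library 3 (0.0507 to 0.0779).

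In late ICM *Fbxo15* had 2 decreases in *Pou5f1*-KO (all peaks 10.1%) and 1 increase in *Sox2*-KO (all 2.71%). An intronic peak 17.2 kb downstream read 5.13, 4.72, 5.25 and 5.57 in *Pou5f1* Ctrl and 4.25, 4.17, 4.38 and 4.06 in KO (-0.95, adjusted p 0.0184, and 0.0833 and 0.0508 without library 4 of Ctrl or of KO). The other decrease lay 8.3 kb upstream (-0.88, 0.0394, and 0.0529 to 0.152 without any of 6 of the 8 libraries). A peak 6.8 kb upstream rose in *Sox2*-KO, from 5.80, 5.69, 6.40 and 6.25 to 6.86, 7.01, 7.06 and 6.85 (0.91, 0.00201).

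*Sall4* (chr2:168748332-168767943, minus strand) had 21 peaks and shares its window with *Atp9a*. It had a single decrease, 7.3 kb upstream in *Pou5f1*-KO early ICM (-1.73, adjusted p 0.00449), and 2 increases in each late ICM comparison. Over all peaks 8.19% increased in *Pou5f1*-KO late ICM and 2.71% in *Sox2*-KO late ICM. The peak nearest an annotated start, 0.7 kb downstream of the outermost one, had group means from 4.68 to 5.75 and no call. The peak 0.1 kb upstream of the outermost start increased in *Sox2*-KO late ICM (1.21, 0.049). Without Ctrl library 1 the difference was 0.75 (0.382), and without Ctrl library 2 or 4 or KO library 2, 3 or 4 it did not pass either (0.0584 to 0.214). In *Pou5f1*-KO late ICM it was 0.82 (0.158). The highest peak, 26.5 kb downstream toward *Atp9a*, ranged from 5.56 to 6.21 and was not called. The peak increased in both knockouts lay 0.9 kb upstream (chr2:168768744-168768943). It read 3.80, 4.18, 3.64 and 2.96 in *Pou5f1* Ctrl late ICM and 5.16, 4.53, 4.49 and 4.91 in KO (1.12, 0.0219, and 0.055 to 0.119 without KO library 1 or 4 or Ctrl library 4). *Sox2* Ctrl read 2.79, 3.49, 3.255 and 3.05 and KO 4.81, 4.76, 5.00 and 4.11 (1.52, 0.0026). In *Pou5f1*-KO early ICM the difference there was 1.06 (0.0573). It passed with the replicate block (0.0198), after quantile normalization (0.0487) and without KO library 2 (0.0486) or Ctrl library 4 (0.0496). The *Sall4* peak with the OCT-SOX word was higher in *Pou5f1*-KO late ICM without passing (1.08, 0.0658), and passed with only the libraries compared (0.0342), with the replicate block (0.0415) or without KO library 1 (0.0416).

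**Figure D2:**
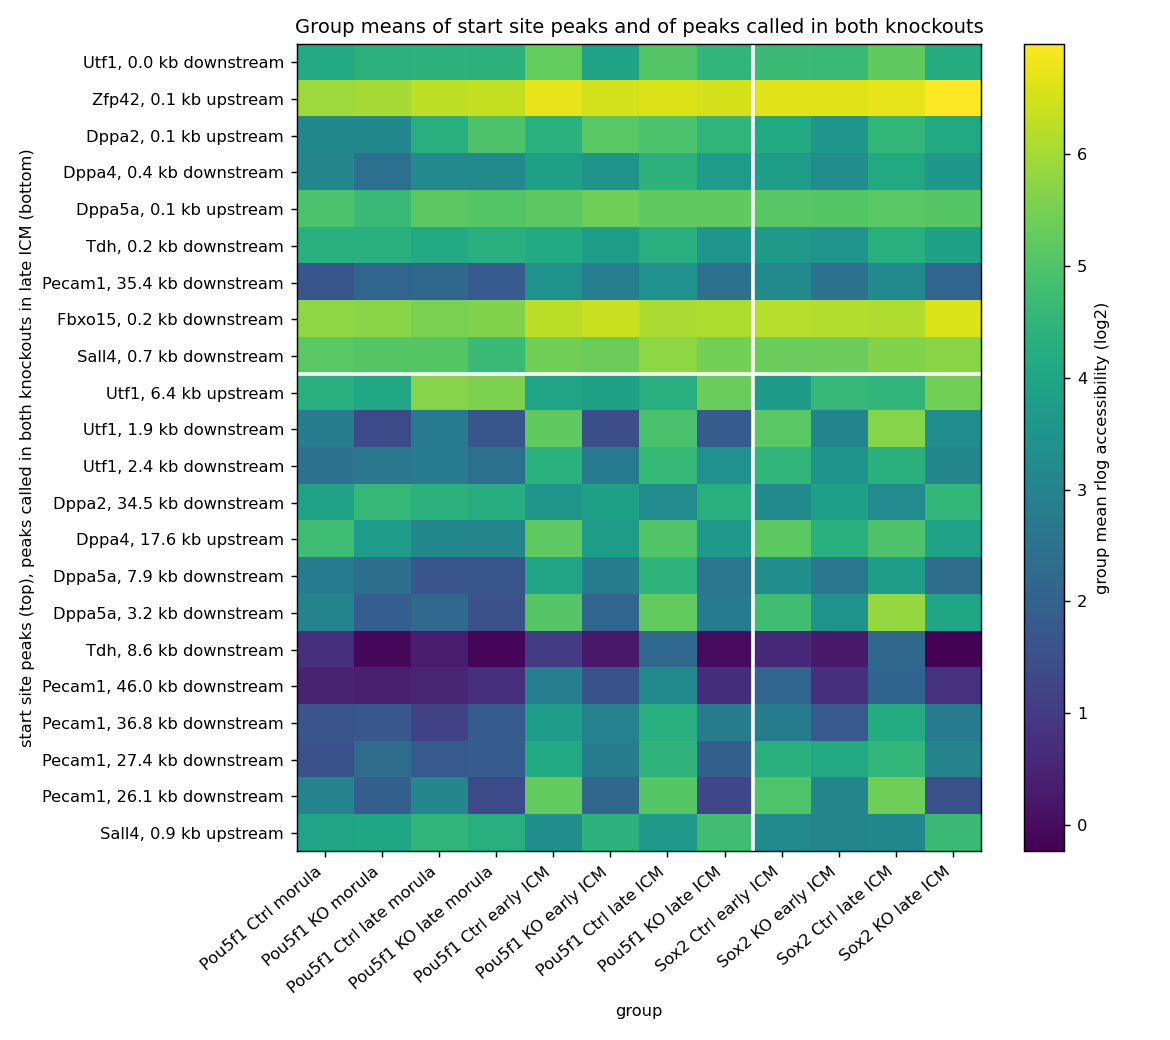
Mean rlog (colour scale) of the start site peaks of the 9 genes (top) and of the 13 peaks that passed in late ICM of both lines (bottom), in the 12 groups. The start sites of *Zfp42* and *Fbxo15* stay above 5.5 in every group, while the *Utf1* enhancer and the *Pecam1* peak 26.1 kb downstream reach 4.92 or more in Ctrl ICM and 3.29 or less in KO ICM.

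The effects of losing Oct4 and of losing Sox2 were compared directly as the difference between them. No member peak was called in early ICM (all peaks 0.68%) or in late ICM (all 0.905%) by limma, and 29 and 17 had an unadjusted p under 0.05. With the replicate block 4 differed in early and 1 in late ICM. Without *Sox2* Ctrl library 1 or 3 or KO library 3 there was 1 in early ICM, without *Sox2*-KO library 4 there were 2, and without *Sox2* Ctrl library 3 there was 1 in late ICM. At the *Utf1* enhancer the *Pou5f1*-KO decrease exceeded that of *Sox2*-KO by 1.60 in early ICM (difference -1.60, 95% interval -2.70 to -0.51, adjusted p 0.143), and in late ICM the difference was -0.71 (-1.80 to 0.39, 0.637). At the *Pecam1* peak 26.1 kb downstream it was -1.17 in early ICM (-2.38 to 0.03) and 0.08 in late ICM (-1.13 to 1.29). At *Dppa5a* 8.2 kb downstream the late ICM difference was -1.73 (0.133), and at *Tdh* 8.6 kb downstream it was 0.19 (-1.0 to 1.38). The late ICM intervals at the *Pecam1* and *Tdh* peaks allow a 2-fold difference between the knockouts in either direction.

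Across the 165 peaks the late ICM differences of the knockouts had the same sign at 111 (67.3%, all peaks 63.2%) and correlated with r = 0.699 (all peaks 0.543), and the early ICM differences with r = 0.347 (all peaks 0.311). These describe peaks, which share libraries and neighbours and are not replicates.

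**Figure D3:**
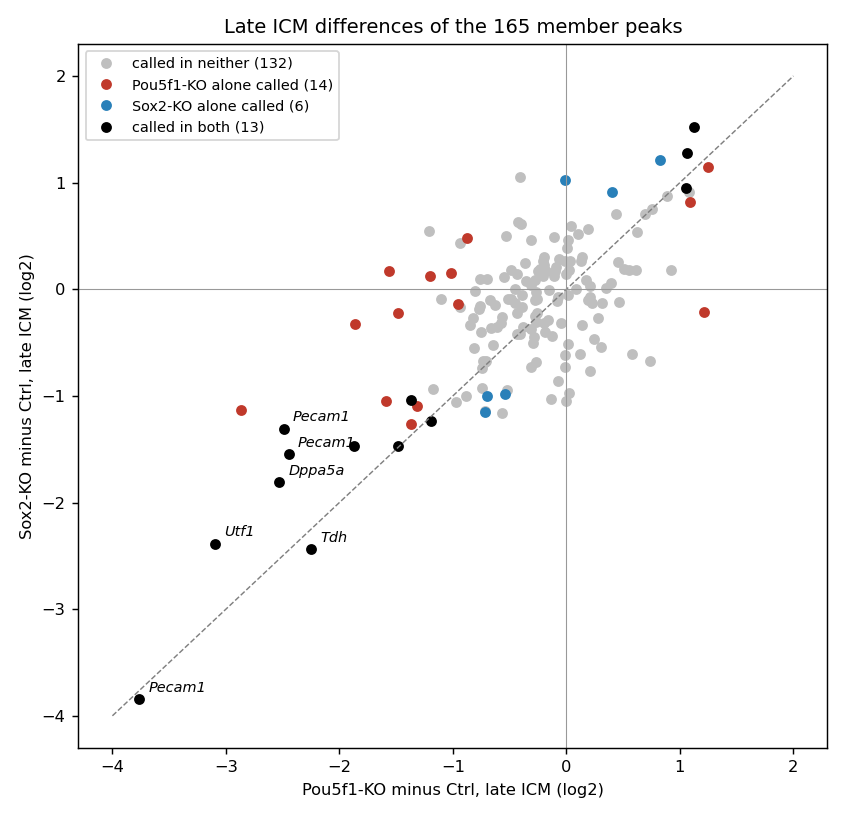
Late ICM difference of each of the 165 member peaks in *Pou5f1*-KO (horizontal axis) and *Sox2*-KO (vertical axis), both KO minus Ctrl in log2. Colours mark the 132 peaks called in neither, 14 in *Pou5f1*-KO alone, 6 in *Sox2*-KO alone and 13 in both. Those passing in both lie at the lower left (10) or upper right (3).

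Other pluripotency genes were taken from a fixed list of 20, of which 19 had peaks by the same rule, 283 in all. In *Pou5f1*-KO late ICM 72 of these were lower (25.4%, all peaks 10.1%) and 8 higher (2.83%, all 8.19%). In late ICM of *Sox2*-KO 29 were lower (10.2%, all 4.88%) and 10 higher (3.53%, all 2.71%). The shares of the 165 member peaks that were lower were 12.7% and 7.88%. *Esrrb*, an orphan nuclear receptor, had 15 decreased peaks of 37 in *Pou5f1*-KO late ICM, and the neighbours *Dppa3* and *Gdf3* 10 of 15 and 9 of 13, of which 8 are the same peaks, while *Fgf4* had 7 and 10 of 19 in the 2 knockouts and *Klf4* and *Tbx3* none. From morula to early ICM 92 of the 283 rose in Ctrl (32.5%) and 25 fell (8.83%). The shares were near those of the members, 29.7% and 8.48%, while 16.5% and 14.6% of all peaks rose and fell.

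Peaks around markers of other cell types were measured beside these results. Around 6 epiblast markers the mean rlog of 109 peaks lay between 3.56 and 3.82 in *Pou5f1* Ctrl late ICM and between 2.88 and 3.00 in KO, and between 3.55 and 3.82 and 3.18 and 3.38 in the *Sox2* line. Around 10 trophectoderm markers (161 peaks) it was 3.43 and 3.40 in the *Pou5f1* line and 3.34 and 3.56 in the *Sox2* line, and around 8 primitive endoderm markers (105 peaks) 2.77 and 2.74, and 2.87 and 3.00. The trophectoderm mean of *Sox2*-KO late ICM libraries (3.47 to 3.66) was above that of Ctrl (3.29 to 3.38). In early ICM the epiblast mean lay between 3.54 and 3.77 in *Pou5f1* Ctrl and between 3.07 and 3.31 in KO. It overlapped between KO and Ctrl in the *Sox2* line, as the other lists did in both lines. The part of these marker levels in the member differences was not tested.

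Among all 152393 peaks, those whose 12 group means followed the *Utf1* enhancer most closely were near *Ank* (191336 bp from its start, r = 0.986), *Ctnna1* (14407 bp, 0.985) and *Sept11* (7450 bp, 0.984). For the *Pecam1* peak 26.1 kb downstream they were near *Nap1l3* (601010 bp, 0.989), *Arhgef26* (425081 bp, 0.987) and *Gm5150* (52485 bp, 0.985). Their late ICM differences lay between -3.68 and -1.72 in both knockouts, a direction that the choice by these means fixed. The likeness rests on 12 means that share libraries and stages.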

How the data were processed

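ATAC-seq libraries had been mapped by the authors to mm10 with Bowtie2, with Picard for duplicates, MACS2 for peaks and bedtools for insertions per 200 bp peak. The values used here are the log2 (rlog) values that the authors made with DESeq2 and deposited for 152393 peaks and 44 libraries. Depth and counts were not used here, so no count model was fitted. Deposited means matched the library means within 4.3e-08. Genes were placed with GENCODE vM21, and a peak is named by its distance from the outermost start of its gene.

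All 12 groups entered a single limma fit (limma 3.58.1, R 4.3.3, lmFit with a mean per group and no covariate, eBayes with trend, 32 residual degrees of freedom), and p-values were adjusted over all peaks by Benjamini-Hochberg. Peaks were called at an adjusted p under 0.05. Counts at an unadjusted p under 0.05 are given for members only. The share of all peaks at that p was not computed, so these counts do not set the members apart. The fit was tested on simulated data. Tables and figures were made with Python 3.11.15, numpy 2.4.6, scipy 1.17.1, pandas 2.3.3 and matplotlib 3.10.9.

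Described singly were, per gene, the start site peak, the peak of highest mean, the peak of smallest p in each late ICM comparison, peaks that passed in late ICM of both lines, peaks with the OCT-SOX word and the enhancers marked by the study at *Utf1* and *Pecam1*. Other peaks named with a value were chosen after their values were seen. Members and lists were chosen with earlier results of these data known.

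The reported calls took no account of pairs, which entered only through the replicate block as an alternative. KO and Ctrl libraries of the same number were read as pairs where their deviations from the group means correlated above 0.1 in every pair. This held in *Pou5f1* late morula (r 0.109 to 0.192) and *Pou5f1* early ICM (0.121 to 0.162), and elsewhere at least 1 pair fell below. In *Pou5f1* morula same-numbered libraries correlated at 0.0479 to 0.153, and those of other numbers at 0.00893 at most. Alternatives were a replicate block, only the libraries compared, quantile normalization, peaks at or above the median rlog, a robust fit, a difference of at least 1, windows of 10 and 50 kb, a stricter word and each library left out in turn.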

Additional observations from a re-analysis of the deposited data

Results flagged for a closer look

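Single libraries stood apart from the other 3 of their group at 8 of 312 sets of 4 libraries tested over 39 peaks, by Dixon's test at its 95% limit, which chance exceeds in about 1 in 20 sets. At *Utf1*, *Sox2*-KO early ICM library 4 read 5.14 at the peak 6.4 kb upstream (others 4.32 to 4.41) and *Sox2*-KO late ICM library 4 read 3.17 at the start site (others 4.47 to 4.66). *Sox2* Ctrl late ICM library 1 read 4.34 at the *Dppa4* peak 17.6 kb upstream (others 5.16 to 5.20), and library 4 of that group read 4.35 at the *Dppa5a* peak 8.2 kb downstream (others 5.03 to 5.15). At the *Tdh* peak 8.6 kb downstream, *Pou5f1*-KO early ICM library 1 read 1.46 (others -0.21 to -0.04). *Sox2* Ctrl early ICM library 2 read 5.52 at the *Pecam1* peak 26.1 kb downstream (others 4.78 to 4.86), and library 1 of that group read 5.48 at the *Sall4* start site (others 5.26 to 5.29). At the *Fbxo15* peak 16.0 kb upstream, *Pou5f1* Ctrl late ICM library 2 read 3.68 (others 4.51 to 4.66).

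At the *Utf1* enhancer 1.9 kb downstream the *Pou5f1*-KO effect differed between late morula and early ICM by -2.65, with limma's adjusted p at 0.0146. ICMs but not morulae had been cultured with the inhibitor and isolated by immunosurgery, so stage and treatment cannot be told apart in this difference.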

How the results depend on the processing

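Counts of member peaks over all 165 that moved by more than 1.5 times are given against the reported count. With only the libraries compared, increases in *Pou5f1*-KO late morula were 2 (1), decreases in *Sox2*-KO early ICM 3 (5), rises from early to late ICM in Ctrl 1 (0) and differences between the knockouts in late ICM 1 (0). With the replicate block, *Pou5f1*-KO increases were 1 in morula (0) and 4 in late morula (1), decreases in late morula 1 (0), and differences between the knockouts 4 in early and 1 in late ICM (0 each). Quantile normalization gave 1 increase in morula (0), 1 decrease in late morula (0) and 3 increases in *Sox2*-KO late ICM (6). Among peaks at or above the median, 8 fell from morula to early ICM (14) and 1 rose from early to late ICM (0). A 10 kb window gave 1 increase in *Pou5f1*-KO early ICM (5), 2 in late ICM (6) and 9 falls from morula to early ICM (14), and a 50 kb window 1 decrease in morula (0) and 23 falls (14). With at most 2 changes 2 peaks held the OCT-SOX word (10). In *Pou5f1*-KO early ICM, where the numbers pair the libraries, the block gave 20 decreases and 6 increases, within 1.5 times of those reported.

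Leaving out each library in turn gave 0 to 1 decreases and 0 to 1 increases in *Pou5f1*-KO morula, 0 to 1 and 0 to 2 in late morula, 10 to 13 and 1 to 4 in early ICM, and 15 to 21 and 3 to 5 in late ICM. It gave 3 to 6 and 0 to 0 in *Sox2*-KO early ICM, 7 to 15 and 2 to 5 in late ICM, 12 to 16 falls and 36 to 49 rises from morula to early ICM, 0 to 0 for both from early to late ICM, and 0 to 2 and 0 to 1 differences between the knockouts in early and late ICM. Of the called differences of singly described peaks, 358 values under the other alternatives still passed and 20 did not, and 419 still passed and 99 did not with a library left out. Of the differences not called, 14 values passed under the other alternatives and 11 with a library left out, against 729 and 992 that did not. None of the called differences changed sign. Depth is unknown and rlog shrinks weak peaks, so small differences at weak peaks such as that of *Tdh* may be understated.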
